A study of Arabidopsis thaliana and Arabidopsis lyrata subsp. lyrata and Arabidopsis halleri subsp. gemmifera with 10 samples.

Results

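FMA and TRY are regulators of cell fate in the leaf epidermis, and each was read by 1 probe set annotated to that gene alone. FMA (AT3G24140, probe set 257247_at), also called FAMA, and TRY (AT5G53200, probe set 248246_at), TRIPTYCHON, are 2 of 13286 genes that have such a probe set in the annotation used here. The array held 22746 probe sets other than controls, 13513 of them with a single gene. The genes were chosen by name, taking the probe set of the highest mean signal, and neither had a second candidate. Leaves were compared between 5 groups of 2 biological replicates each, with 1 Affymetrix ATH1 array per replicate. The hybrid of A. thaliana with A. halleri is called the halleri hybrid here, and that of A. thaliana with A. lyrata the lyrata hybrid. The other groups were A. halleri (ssp. gemmifera), A. lyrata (ssp. lyrata) and A. thaliana (Col). All plants grew at 22 C with 16 h of fluorescent light, and mature leaves were taken before flowering. The sources used here do not give the direction of the crosses, the ploidy of the hybrids or the number of plants per replicate.

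The leaf epidermis of Arabidopsis forms pavement cells, stomatal guard cells and unicellular hairs called trichomes. Guard cells arise through a lineage driven in sequence by the bHLH transcription factors SPCH, MUTE and FMA. SPCH starts the lineage, MUTE ends its self-renewal, and FMA stops division of the guard mother cell and gives its daughters guard cell identity. Trichome spacing rests on lateral inhibition: a complex of an R2R3 MYB protein, a bHLH protein and TTG1 promotes the trichome fate, and small MYB proteins with a single repeat, among them TRY, move to neighbouring cells and compete with the R2R3 MYB partner. In A. thaliana, loss of TRY gives clusters of trichomes, and loss of FMA gives stacks of small cells where stomata should form. TRY and SPCH are next to each other in the gene order of the TAIR10.1 annotation.

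Signals are given in arbitrary units after each array was rescaled to a mean of 500, trimmed by 2% at each end. A log2 difference is the first-named group minus the second, ± SE, from limma on log2(signal + 9.24), and a probe set was called where the Benjamini-Hochberg adjusted p over 16656 probe sets was below 0.05. The probes were designed on A. thaliana, so fewer transcripts and a poorer match of the probes cannot be told apart where A. halleri, A. lyrata or a hybrid had the lower signal. Probe match bears on higher signals too, because each array was rescaled to the mean of its own probe sets. Its part in the FMA and TRY differences was not tested. In whole leaves, fewer cells of a type and less RNA per cell cannot be told apart either. The signal of one probe set is not comparable in level with that of another. Controls added to the samples were brighter relative to the leaf signal in some groups. Their median, divided by that of A. thaliana, was 0.984 in the halleri hybrid, 1.48 in the lyrata hybrid, 2.35 in A. halleri and 3.33 in A. lyrata. Values scaled on these controls are called the spike-in scale. The control median also differed between the 2 A. thaliana arrays, at 956 in replicate 1 and 562 in replicate 2. This spread enters every comparison with A. thaliana on the spike-in scale. The deposited arrays came in 2 scale classes. A trimmed mean of 500 was already present in 5 arrays, which were both of A. halleri, both of the halleri hybrid and the first of A. thaliana. The other 5 arrays had trimmed means between 24.3 and 136. RCA, the Rubisco activase of green leaf tissue, lay at or above the 99.7th percentile of the array on average in each of the 5 groups. Of 16 guard cell function genes, 9 epidermis and cuticle genes, 5 dividing-cell genes and 6 flower genes listed, 0 had a single-gene probe set named here.

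FMA was higher in both relatives and in both hybrids than in A. thaliana when arrays were scaled on their own mean. Its signal was 324 and 334 in the halleri hybrid and 470.2 and 439.6 in the lyrata hybrid. It was 357 and 415 in A. halleri and 353 and 339.7 in A. lyrata, against 145 and 131 in A. thaliana. The 2 A. thaliana arrays were thus the lowest of the 10, and the replicates within each group lay close together. From the highest to the lowest, the group means were 455 ± 21.6 in the lyrata hybrid, 386 ± 41.6 in A. halleri, 346 ± 9.15 in A. lyrata, 329 ± 7.14 in the halleri hybrid and 138 ± 9.25 in A. thaliana (SD, n = 2 each). Neighbours in this order did not overlap in their arrays, but the difference between A. halleri and A. lyrata did not pass limma's test (0.15 ± 0.28, 95% interval -0.48 to 0.78, adjusted p = 0.754). No test was run between the lyrata hybrid and A. halleri, or between A. lyrata and the halleri hybrid.

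**Figure D1:**
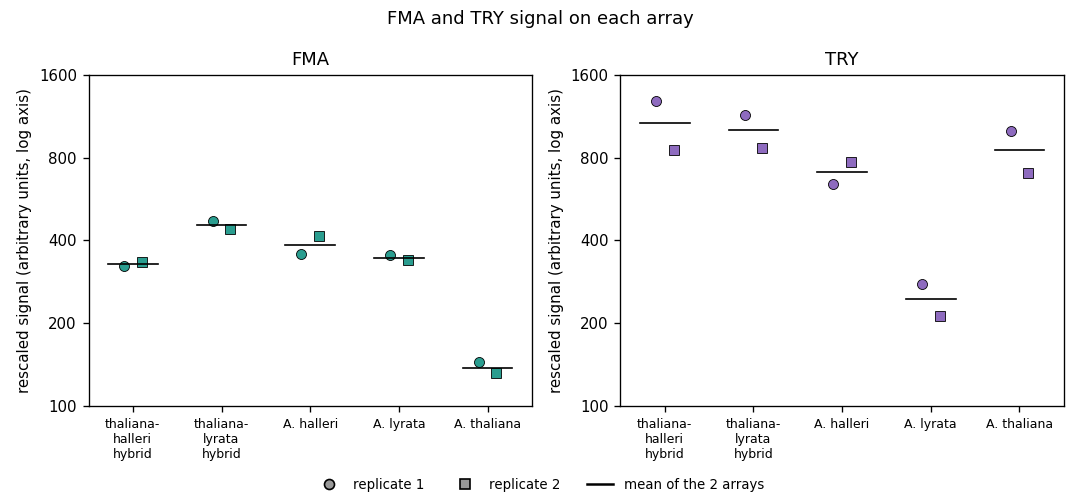
Rescaled signal (arbitrary units, log axis) of FMA and TRY on each of the 10 arrays, with a line at the mean of the 2 arrays of a group. FMA was at 145 and 131 in A. thaliana and between 324 and 470.2 in the other groups, and TRY was at 277 and 212 in A. lyrata and between 641 and 1289 in the other groups.

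Each of the 4 comparisons with A. thaliana called FMA higher, and these comparisons share the 2 A. thaliana arrays. In A. lyrata FMA was 2.42-fold higher (1.27 ± 0.28, adjusted p = 0.00643, limma), where 25.8% of all probe sets tested were called higher. In A. halleri it was 2.68-fold higher (1.42 ± 0.28, adjusted p = 0.00437), where 23.5% were called higher. In the lyrata hybrid it was 3.15-fold higher (1.66 ± 0.28, adjusted p = 0.00767), a call made in this direction for 6.6% of probe sets. In the halleri hybrid it was 2.30-fold higher (1.20 ± 0.28, adjusted p = 0.039), against 4% of probe sets called higher. Among all differences of the same comparison, FMA sat at the 88.2th percentile for the halleri hybrid, the 93.9th for the lyrata hybrid, the 79.6th for A. halleri and the 74.7th for A. lyrata.

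The size of the FMA difference depended on what the arrays were scaled to. On the spike-in scale the log2 difference from A. thaliana was 1.24 for the halleri hybrid (adjusted p = 0.0907), 1.12 for the lyrata hybrid (adjusted p = 0.0864), 0.24 for A. halleri (adjusted p = 0.656) and -0.39 for A. lyrata (adjusted p = 0.412), so that 0 of the 4 were called by limma and the one in A. lyrata changed sign. The median of all probe sets on that scale was 0.15 for the halleri hybrid, -0.47 for the lyrata hybrid, -0.92 for A. halleri and -1.42 for A. lyrata. Relative to that median, FMA stood higher than in A. thaliana by 1.09 for the halleri hybrid, 1.60 for the lyrata hybrid, 1.16 for A. halleri and 1.03 for A. lyrata. The same distance on the trimmed-mean scale was 1.07 for the halleri hybrid, 1.56 for the lyrata hybrid, 1.10 for A. halleri and 0.97 for A. lyrata. A scale factor shifts FMA and the other probe sets of an array together. The distance from the median is thus nearly fixed by construction, and so is the rank within the array. Neither is a test of the scaling. Within the array, FMA ranked at the 64.0th percentile of probe sets for the halleri hybrid, the 72.8th for the lyrata hybrid, the 67.8th for A. halleri and the 65.7th for A. lyrata, against the 49.0th for A. thaliana (means of 2 arrays). The FMA call in the halleri hybrid was lost in 16 of 21 other settings, among them the replicate block (adjusted p = 0.0555), no filter on dim probe sets (0.0585) and the scale class as a block (0.0706). It was lost on leaving out any 1 array except A. thaliana replicate 1, with values of 1.13 to 1.22 and adjusted p of 0.0535 to 0.223. The FMA call in the lyrata hybrid was lost without that hybrid's replicate 1 (1.61, adjusted p = 0.0747).

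**Figure D2:**
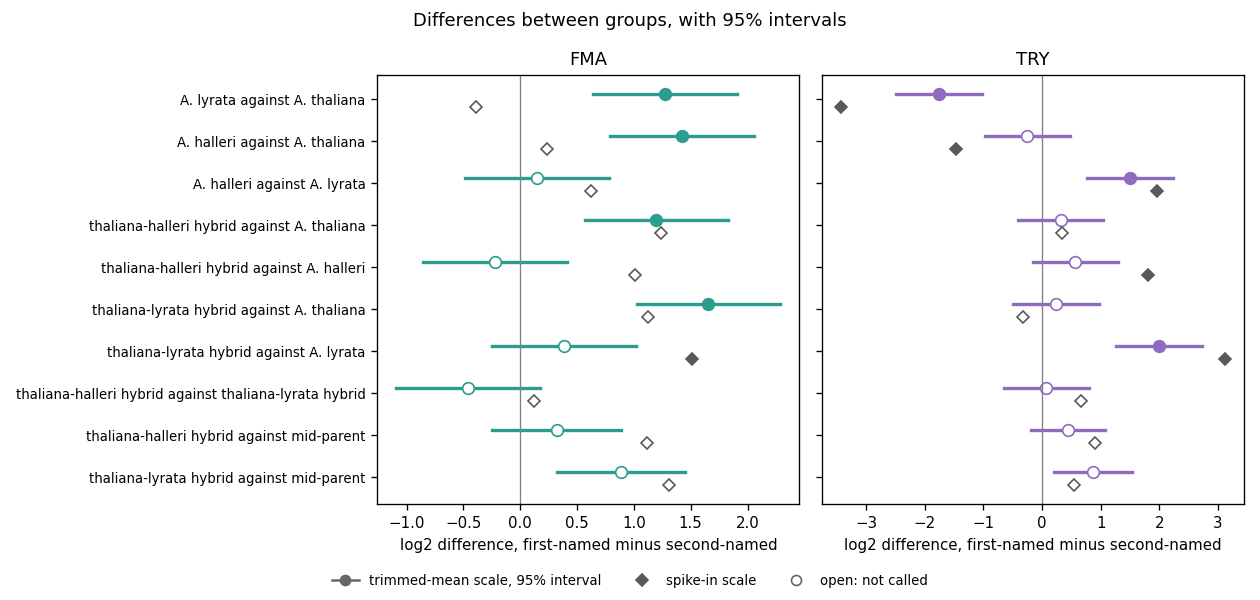
Log2 differences of FMA and TRY (first-named minus second-named group) for 8 pairs of groups and 2 comparisons with mid-parent. Circles with 95% intervals are on the trimmed-mean scale and diamonds on the spike-in scale, filled where the adjusted p was below 0.05. For FMA, 4 circles and 1 diamond are filled, and the filled circles are those of the 4 comparisons with A. thaliana. For TRY, the filled circles are those of the 3 comparisons with A. lyrata on either side.

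TRY, the trichome inhibitor, had its lowest signal in A. lyrata. Its signal was 1289 and 853 in the halleri hybrid and 1142 and 866 in the lyrata hybrid. In A. halleri it was 641 and 772 and in A. lyrata 277 and 212, against 999 and 706 in A. thaliana. The 2 A. lyrata arrays were the lowest of the 10, and A. thaliana overlapped with A. halleri and with both hybrids. In order, the means were 1071 ± 308 in the halleri hybrid, 1004 ± 195 in the lyrata hybrid, 852 ± 208 in A. thaliana, 707 ± 92.1 in A. halleri and 244 ± 46.0 in A. lyrata (SD, n = 2 each). Neighbours among the first 4 groups in this order overlapped and did not pass the test. The differences were 0.08 ± 0.33 between the hybrids (95% interval -0.65 to 0.80, adjusted p = 0.957, with 2.65% of probe sets called in either direction), 0.24 ± 0.33 between the lyrata hybrid and A. thaliana (-0.49 to 0.97, adjusted p = 0.671, and -0.32 on the spike-in scale) and -0.25 ± 0.33 between A. halleri and A. thaliana (-0.98 to 0.48, adjusted p = 0.555). These intervals leave room for differences of up to almost 1 on the log2 scale.

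TRY of A. lyrata was lower than that of each of the 3 groups it was tested against. Against A. thaliana it was 3.38-fold lower (-1.76 ± 0.33, adjusted p = 0.00275, limma), where 17.2% of probe sets were called lower, and the difference sat at the 11.2th percentile of all differences. The lyrata hybrid stood 3.99-fold above its A. lyrata parent (1.997 ± 0.33, adjusted p = 0.00398), a call made in this direction for 10.3% of probe sets. These 2 calls held in all 21 other settings tried, and on the spike-in scale the differences were -3.44 (adjusted p = 2.77e-05) and 3.12 (adjusted p = 0.000138). A. halleri stood 2.84-fold above A. lyrata (1.50 ± 0.33, adjusted p = 0.0141), where 8.13% of probe sets were called higher. All A. halleri arrays are in one scale class and all A. lyrata arrays in the other. With the scale class as a block, which rests on the 2 A. thaliana arrays alone, the difference was 1.01 and no longer called (adjusted p = 0.226). The call was also lost without A. lyrata replicate 2 (1.32, adjusted p = 0.0897), without A. halleri replicate 1 (1.64, adjusted p = 0.0559) and without A. halleri replicate 2 (1.37, adjusted p = 0.093).

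On the spike-in scale TRY also fell in A. halleri relative to A. thaliana (-1.47, adjusted p = 0.00806), beside a median of -0.92 over all probe sets, and the halleri hybrid stood above its A. halleri parent (1.82, adjusted p = 0.00326), beside a median of 1.06. On the trimmed-mean scale that hybrid stood 0.57 ± 0.33 above A. halleri (adjusted p = 0.257), where 15.1% of probe sets were called in either direction. Within the array, TRY ranked at the 85.7th percentile in the halleri hybrid, the 85.6th in the lyrata hybrid, the 80.2th in A. halleri and the 56.5th in A. lyrata, against the 81.3th in A. thaliana.

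Neither gene departed from the mid-parent level beyond the threshold in either hybrid. The mid-parent level is the arithmetic mean of the 2 parents' levels, each a mean taken on the log scale and turned back. In the lyrata hybrid, FMA was at 455 against a mid-parent level of 242 (0.88 ± 0.25, adjusted p = 0.0733, limma) and TRY at 995 against 541 (0.87 ± 0.30, adjusted p = 0.119), where 1.67% of probe sets were called higher. In the halleri hybrid, FMA was at 329 against 261 (0.32 ± 0.25, adjusted p = 0.587) and TRY at 1049 against 772 (0.44 ± 0.28, adjusted p = 0.494), where 0.396% were called higher and 1.09% in either direction. The FMA arrays of the lyrata hybrid lay above all arrays of both parents. The share of all probe sets that do so was not counted. Arrays of this hybrid did not overlap with A. thaliana for 54.1% of probe sets and with A. lyrata for 67.1%, in either direction. On the spike-in scale the deviation of the lyrata hybrid was 1.31 for FMA (adjusted p = 0.0525) and 0.55 for TRY (adjusted p = 0.477), and that of the halleri hybrid 1.12 for FMA (adjusted p = 0.0888) and 0.90 for TRY (adjusted p = 0.152). With the parents' mean taken on the log2 scale, the lyrata hybrid was called for both genes (FMA 1.02, adjusted p = 0.0434, and TRY 1.12, adjusted p = 0.0496). The deviation of the halleri hybrid minus that of the lyrata hybrid was -0.57 ± 0.35 for FMA (adjusted p = 0.611) and -0.43 ± 0.35 for TRY (adjusted p = 0.727), neither past the threshold, where 1.04% of probe sets were called in either direction. The TRY value turned to 0.34 on the spike-in scale and 0.35 with hybridization controls alone.

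Against the other parent, FMA did not pass the test in either hybrid. The lyrata hybrid stood 0.38 ± 0.28 above A. lyrata (95% interval -0.25 to 1.02, adjusted p = 0.349), and on the spike-in scale it was called higher (1.51, adjusted p = 0.0118). The halleri hybrid was -0.22 ± 0.28 from A. halleri (-0.85 to 0.41, adjusted p = 0.618), with the sign turned on the spike-in scale (1.01, adjusted p = 0.0613). Between the hybrids, FMA of the A. halleri cross was -0.46 ± 0.28 from that of the A. lyrata cross (-1.09 to 0.17, adjusted p = 0.51), and 0.12 on the spike-in scale. The arrays did not overlap in 8 of the 8 pairs of groups for FMA. The share of all probe sets whose arrays did not overlap was 53.8% for the halleri hybrid, 54.1% for the lyrata hybrid, 70.1% for A. halleri and 69.7% for A. lyrata against A. thaliana. It was 63.1% between A. halleri and A. lyrata, 69.6% between the halleri hybrid and A. halleri, 67.1% between the lyrata hybrid and A. lyrata, and 53.5% between the hybrids.

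The change of TRY relative to FMA can be followed within each array, where any scaling of the array cancels. The ratio of 2 probe sets is not a ratio of transcripts, and only its change between groups is read here. Log2(TRY/FMA) was 1.99 and 1.35 in the halleri hybrid and 1.28 and 0.98 in the lyrata hybrid. It was 0.85 and 0.89 in A. halleri and -0.35 and -0.68 in A. lyrata, against 2.79 and 2.42 in A. thaliana. No 2 of the 5 groups overlapped, A. thaliana was the highest and A. lyrata the lowest, and each hybrid lay between its parents. How often the ratio of other pairs of probe sets does the same was not counted. A probe match that differs between species does not cancel in this ratio. Relative to A. thaliana the mean log2 ratio was -0.93 for the halleri hybrid, -1.48 for the lyrata hybrid, -1.74 for A. halleri and -3.12 for A. lyrata, with SDs of 0.03 to 0.45 within the groups. In A. lyrata FMA was the higher and TRY the lower on the trimmed-mean scale, while in A. halleri TRY overlapped with A. thaliana. This ratio joins genes chosen with earlier results known, so it is given without a test.

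**Figure D3:**
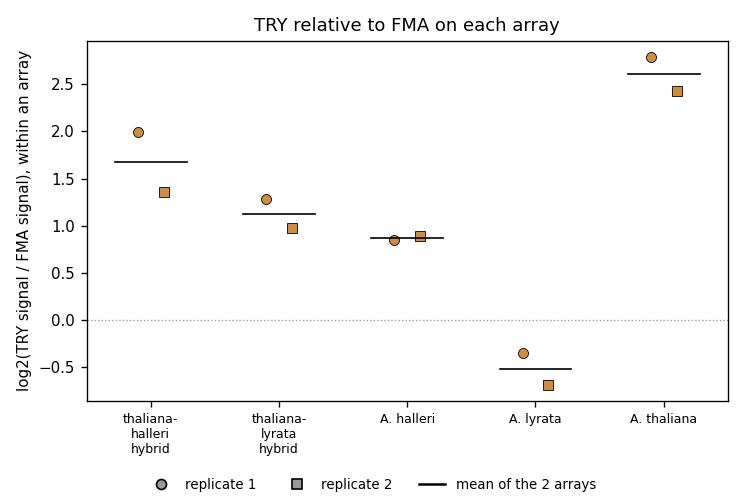
Log2 ratio of the TRY signal to the FMA signal within each of the 10 arrays, with a line at the mean of the 2 arrays of a group. The values run from -0.68 and -0.35 in A. lyrata to 2.42 and 2.79 in A. thaliana, and the 5 groups do not overlap.

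Other genes of the stomatal lineage could be set beside FMA only in small part. Of 27 listed genes, 4 had a single-gene probe set, which were SPCH, MUTE, FMA and STOMAGEN, and 3 passed the filter on dim signals. Counting FMA itself, 1 of the 3 was called higher in the halleri hybrid, 1 in the lyrata hybrid, 2 in A. halleri and 1 in A. lyrata against A. thaliana, where 4%, 6.6%, 23.5% and 25.8% of all probe sets were called higher. In the same comparisons 0 of the 3 were called lower, beside 2%, 4.95%, 16.2% and 17.2% of all probe sets. With 3 genes the median is a single gene: in A. lyrata it was FMA itself (1.27), and in A. halleri STOMAGEN (2.24, adjusted p = 0.127, not called), beside 0.31 and 0.32 for all probe sets. SPCH, which starts the lineage, was at 12.1 and 79.8 in the halleri hybrid, 27.4 and 3.40 in the lyrata hybrid, 130.0 and 99.3 in A. halleri and 11.5 and 10.3 in A. lyrata, against 3.77 and 3.97 in A. thaliana. SPCH passed the filter through A. halleri alone, with a mean of 115 there and 45.9 or lower in the other groups. Its call in A. halleri, 1 of the 2 counted above, is thus not independent of the filter. In A. thaliana SPCH ranked at the 8.92th percentile, below the offset. It was called in A. halleri alone among the 11 comparisons (3.23 ± 0.86 against A. thaliana, adjusted p = 0.0157, limma). The size of this difference depends on the offset, with 1.61 at an offset of 50 and 4.56 at an offset of 1. SPCH was tested in 16 other settings, and its call was lost in 4 of them. These were the scale class as a block (3.24, adjusted p = 0.0531, limma) and a threshold of 0.01. The others left out A. thaliana replicate 2 (3.17) or A. halleri replicate 2 (3.44).

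MUTE, the regulator between SPCH and FMA, did not reach the filter of 104 in any group and was not tested. Its signal was 14.3 and 32.7 in the halleri hybrid, 6.69 and 11.6 in the lyrata hybrid, 22.7 and 89.3 in A. halleri and 7.56 and 6.05 in A. lyrata, against 3.81 and 1.69 in A. thaliana. MUTE was thus dim throughout, with its highest array in A. halleri. STOMAGEN, a secreted peptide of the mesophyll that promotes stomata, was at 1125 and 1222 in the halleri hybrid, 2119 and 879 in the lyrata hybrid, 979 and 976 in A. halleri and 1125 and 704 in A. lyrata. In A. thaliana it was at 982 in replicate 1 and 35.0 in replicate 2, and it was called in 0 of the 11 comparisons by limma. Replicate 1 lay within the range of the other groups' arrays. STOMAGEN of A. thaliana replicate 2 was the lowest of the 10 arrays. On the trimmed-mean scale FMA was also lowest on that array, but close to replicate 1 (131 against 145). On the spike-in scale FMA was higher in A. thaliana replicate 2 (279) than in replicate 1 (180).

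**Figure D4:**
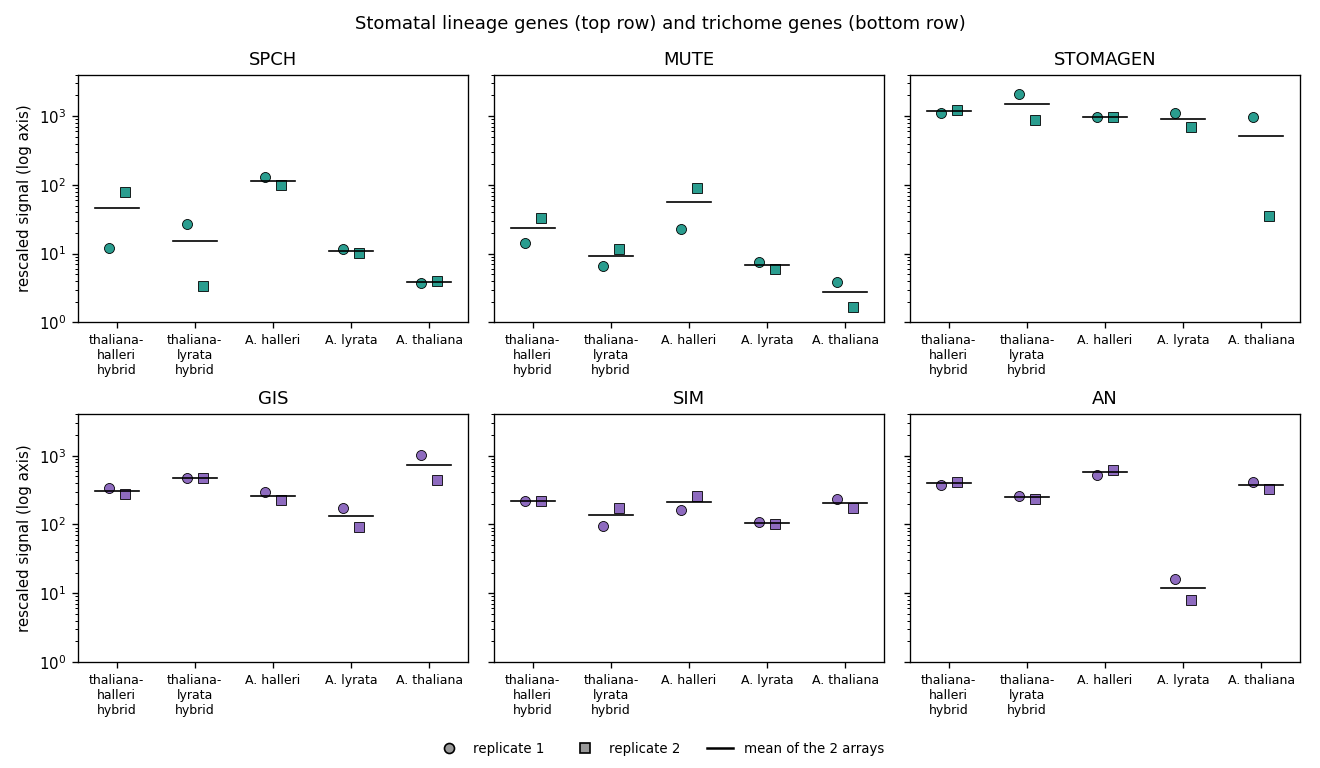
Rescaled signal (log axis) on each array of the stomatal lineage genes SPCH, MUTE and STOMAGEN and of the trichome genes GIS, SIM and AN, with a line at the mean of the 2 arrays of a group. AN is at 15.9 and 8.08 in A. lyrata and at 236 or higher in the other groups, and STOMAGEN is at 35.0 in A. thaliana replicate 2.

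Among trichome genes, the initiation regulator GIS and the branching gene AN had lower signals in A. lyrata than in A. thaliana, as TRY did. SIM, tested with GIS in the patterning list, had the same direction without a call (-0.90 ± 0.41, adjusted p = 0.103, limma). The median of these 2 patterning genes was -1.62. Not all trichome genes shared this direction. Apart from AN, the genes tested for growth and branching were higher in A. lyrata. The log2 differences were 1.06 for PIR121, 1.02 for SPK1, 1.80 for BLT, 0.74 for CRK and 0.19 for BRK1, with PIR121 and SPK1 called. BLT passed the filter through A. lyrata alone, so its value is not independent of the filter. Its signal was 152 and 80.5 in A. lyrata, against 66.9 and 6.28 in A. thaliana. TRY was the only one of 7 listed single-repeat MYB genes with a single-gene probe set, and 2 of 14 patterning genes had one. GIS, a zinc-finger protein that promotes trichome initiation in A. thaliana, was at 342 and 278 in the halleri hybrid and 467 and 468 in the lyrata hybrid. It was at 297 and 230.1 in A. halleri and 176 and 90.4 in A. lyrata, against 1031 and 449 in A. thaliana. A. thaliana replicate 1 was the highest array, while replicate 2 was below both arrays of the lyrata hybrid. GIS was called lower than A. thaliana in A. lyrata (-2.35 ± 0.45, adjusted p = 0.00307) and in A. halleri (-1.35 ± 0.45, adjusted p = 0.0368, with 16.2% of probe sets called lower), and higher in the lyrata hybrid than in A. lyrata (1.81 ± 0.45, adjusted p = 0.0214). The call in A. halleri was lost in 9 of 21 other settings, among them leaving out A. thaliana replicate 1 (-0.76, adjusted p = 0.19), either A. halleri array (0.082 and 0.164) or any 1 array of the hybrids (0.0554 to 0.0559). The GIS call in the lyrata hybrid was lost without replicate 1 of that hybrid (adjusted p = 0.1), without its replicate 2 (0.0845) and without A. lyrata replicate 2 (0.12). SIM, an inhibitor of cell division in growing trichomes, was called in 0 of 11 comparisons by limma, with signals from 96.4 to 263.

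Among genes of trichome growth and branching, AN had its lowest signal in A. lyrata. Of 15 listed, 6 were tested, and 2 were called higher and 1 lower in A. lyrata against A. thaliana, near the shares over all probe sets of 25.8% and 17.2%. Their median log2 difference was 0.88, beside 0.31 for all probe sets. BLT, which passed the filter through A. lyrata alone, enters this median. AN, a CtBP-like protein needed for trichome branching in A. thaliana, was at 377 and 417 in the halleri hybrid, 261 and 236 in the lyrata hybrid, 531 and 621 in A. halleri and 15.9 and 8.08 in A. lyrata, against 411 and 330 in A. thaliana. Only in A. lyrata was AN near the bottom of the array, at the 8.43th percentile, while it lay at or above the 59.6th percentile on average in each other group. Its difference from A. thaliana in A. lyrata was -4.18 ± 0.34 (adjusted p = 5.31e-05), A. halleri stood 4.80 ± 0.34 above A. lyrata (adjusted p = 6.72e-05), and the lyrata hybrid stood 3.62 ± 0.34 above A. lyrata (adjusted p = 0.000268). These 3 calls held in all 21 other settings. AN of A. lyrata was close to the offset, so the sizes depend on it, and they depend on the scale too. Over all settings, with other scales as well as other offsets, they ran from -5.54 to -2.76 against A. thaliana. The ranges were 3.33 to 5.54 for A. halleri and 2.27 to 4.33 for the lyrata hybrid. The SCAR/WAVE complex subunit PIR121 and the guanine nucleotide exchange factor SPK1, which act on the actin skeleton of trichomes, were called higher in A. lyrata (1.06 ± 0.33, adjusted p = 0.0276, and 1.02 ± 0.32, adjusted p = 0.0274) and in A. halleri (1.81 ± 0.33, adjusted p = 0.00301, and 1.06 ± 0.32, adjusted p = 0.026). On the spike-in scale 3 of these 4 changed sign, and PIR121 in A. halleri was 0.61 and not called. Both calls in A. lyrata were lost without A. thaliana replicate 2 and without either A. lyrata array (adjusted p from 0.052 to 0.118), and SPK1 in A. halleri without A. thaliana replicate 2 or either A. halleri array (0.071 to 0.125) and under a block on scale class (0.78, adjusted p = 0.107). CRK, the ARP2/3 complex subunit whose loss gives crooked trichomes, was lower in the lyrata hybrid than in A. lyrata (-1.51 ± 0.36, adjusted p = 0.0183, where 10.2% of probe sets were called lower; -0.36 and not called on the spike-in scale), a call lost without A. lyrata replicate 1 (adjusted p = 0.096) and without the hybrid's replicate 1 (0.127). BRK1 and BLT were called in 0 of 11 comparisons.

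Markers of other leaf cell types were named only for mesophyll and vasculature, at 1 gene each. RCA was called higher in A. lyrata than in A. thaliana (1.27 ± 0.24, adjusted p = 0.00311) and turned sign on the spike-in scale and with quantile normalization. It was also called lower in A. halleri than in A. lyrata (-1.17 ± 0.24, adjusted p = 0.0115, where 7.38% of probe sets were called lower) and higher in the lyrata hybrid than in A. thaliana (1.16 ± 0.24, adjusted p = 0.0171). SWEET11, a sugar exporter of the phloem, was called lower in A. halleri than in A. thaliana (-3.05 ± 0.37, adjusted p = 0.000399) and than in A. lyrata (-3.34 ± 0.37, adjusted p = 0.000673), and higher in the halleri hybrid than in A. halleri (2.13 ± 0.37, adjusted p = 0.00608, where 8.76% were called higher). The RCA call between A. halleri and A. lyrata was lost without any 1 of their 4 arrays (adjusted p = 0.0556 to 0.0706), and that in the lyrata hybrid without either array of it (0.101 and 0.0717). Both were also lost on the spike-in scale (-0.67 and 0.59), with hybridization controls alone (-0.62 and 0.32), with quantile normalization (-0.70 and 0.10) and with no filter (adjusted p = 0.0585 and 0.0745). The SWEET11 call in the halleri hybrid was lost without A. halleri replicate 2 (0.0581) and without replicate 2 of the hybrid (0.0636). In A. lyrata, RCA and FMA had the same log2 difference from A. thaliana to 2 decimals on the trimmed-mean scale. Both turned sign on the spike-in scale (FMA -0.39, RCA -0.46) and with hybridization controls alone (FMA -0.51, RCA -0.59). With quantile normalization RCA turned to -0.29, while FMA kept its sign and its call. The part of tissue makeup in the FMA and TRY differences was not tested.

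The genes with the most similar signals to FMA and to TRY were taken from 1228 other genes with a symbol, by Pearson's r over the 10 arrays on log2(signal + 9.24). The arrays fall into 5 groups and share their scaling, so the 10 points are not independent and no p is given. For FMA they were ACT11, an actin (r = 0.936), LrgB, a glycolate and glycerate transporter of the plastid (0.931), 3xHMG-box2, a DNA-binding HMG-box protein (0.913), F2KP, an enzyme of fructose 2,6-bisphosphate turnover (0.905), and LHCB4.2, a light-harvesting antenna protein (0.889). Being chosen for likeness, these 5 genes had, like FMA, their lowest mean signal in A. thaliana on the trimmed-mean scale. On the spike-in scale the mean of A. lyrata was below that of A. thaliana for FMA (169 against 229.7), LrgB, F2KP and LHCB4.2. The 2 A. thaliana arrays lay apart on that scale, with FMA at 180 and 279. For TRY they were ADCL, an enzyme of folate synthesis (0.958), CaS, a calcium-sensing protein of the chloroplast (0.923), RBP45B, an RNA-binding protein (0.909), IQD24, an IQ-domain protein (0.908), and ACYB-2, a cytochrome b561 (0.908). These were likewise lowest in A. lyrata, as TRY was. On the spike-in scale 3 of the 5 remained among the 5 most similar for FMA, and 3 of 5 for TRY.

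**Figure D5:**
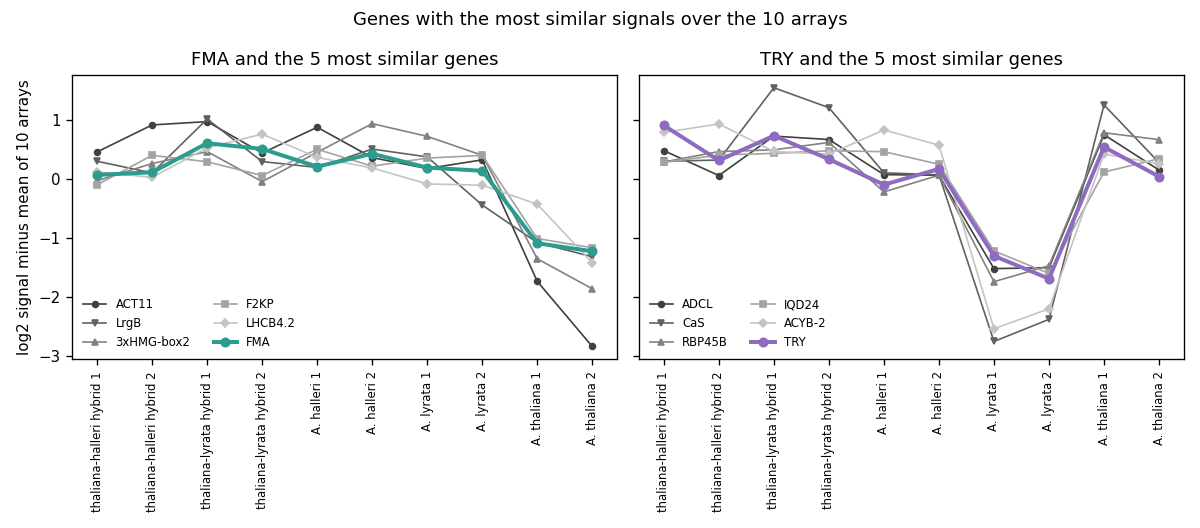
Log2 signal minus its mean over the 10 arrays for FMA and TRY (thick lines) and for the 5 genes most similar to each (thin lines), with the arrays along the axis. Lines join the arrays for the eye alone. On this trimmed-mean scale the FMA set is lowest on the A. thaliana arrays and the TRY set on the A. lyrata arrays, with r between 0.889 and 0.958.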

How the data were processed

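The authors deposited 1 intensity value per probe set and array on a linear scale, made with GCOS and MAS5 per the submitters' processing notes (versions not given in the sources used here) from 500 ng of total RNA per the labels' protocols. Samples were grouped by their titles. Of 22810 probe sets, 64 controls were left out of the tests. Arrays were rescaled to the same 2% trimmed mean (500). A probe set was tested where a group's mean log2 signal was at least the 40th percentile (a signal of 104), as for 16656. Tests used limma 3.58.1 in R 4.3.3 (lmFit, eBayes with trend) on log2(signal + 9.24), with the 10th percentile of signals as offset and all 10 arrays in 1 fit (residual df 5) and 11 comparisons. The mid-parent SE came from the delta method. Arrays have no depth, and having 2 per group limits the precision. The p-values rest on a spread between replicates pooled over the 5 groups and moderated by that of other probe sets. They concern these samples alone. The spike-in scale divides each array by the median of 18 hybridization and 27 poly-A control probe sets. The testing script was checked on simulated data.

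Genes came from the platform's partial annotation, where 503 probe sets have several genes and 8730 none named here, and 13436 of the 13513 with 1 gene matched the TAIR10.1 gene table, used for names and gene order only. The series names no genome build. The rule for named genes took FMA and TRY, every measured member of the stomatal lineage, trichome patterning and single-repeat MYB lists, at most 4 called members of each other list, and the 5 genes most similar to each. The members and the lists were chosen with earlier results of these data known. Other scalings, offsets, filters, blocks, thresholds and left-out arrays were tried.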

Additional observations from a re-analysis of the deposited data

Results flagged for a closer look

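The difference of TRY from A. thaliana differed between the relatives in the test of that difference, but not under every setting. The test, A. halleri minus A. lyrata, gave 1.50 on the log2 scale (adjusted p = 0.0141, limma). Both A. halleri arrays (641 and 772) were above both A. lyrata arrays (277 and 212), where arrays of 63.1% of all probe sets did not overlap. Under a block on scale class the value was 1.01 and not called (adjusted p = 0.226), and the call was lost without A. lyrata replicate 2 (0.0897), A. halleri replicate 1 (0.0559) or A. halleri replicate 2 (0.093). Groups of 2 arrays are too small for a test of single outlying arrays.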

How the results depend on the processing

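Each of the 22 results for FMA and TRY was recomputed under 21 or 22 other settings. Of 468 values, 415 kept their direction and their side of the threshold. Most of these belong to results that were not called, since 4 of 11 comparisons were called for FMA and 3 of 11 for TRY. The A. lyrata differences of TRY from A. thaliana and from the lyrata hybrid kept direction and call in all settings. FMA in the halleri hybrid against A. thaliana kept its call in 5 of 21. With spike-in scaling, FMA was 1.24 in the halleri hybrid, 1.12 in the lyrata hybrid, 0.24 in A. halleri and -0.39 in A. lyrata against A. thaliana, 1.01 and 1.51 in these hybrids against A. halleri and A. lyrata, and 0.12 between the hybrids. TRY was -1.47 in A. halleri and -0.32 in the lyrata hybrid against A. thaliana, 1.82 in the halleri hybrid against A. halleri, and 0.34 for the difference in deviation from mid-parent. With the hybridization controls alone as the scale, an alternative chosen after seeing the data, the same FMA values in the same order were 0.97, 0.86, 0.16, -0.51, 0.81, 1.37 and 0.11, and 1.09 for the lyrata hybrid against mid-parent, and the same TRY values were -1.55, -0.59, 1.62 and 0.35. FMA in the halleri hybrid against A. thaliana lost its call with quantile normalization (0.97), with no filter (1.20), with the scale class as a block (1.13) and at a threshold of 0.01 (1.20). With the scale class as a block, TRY was 1.01 in A. halleri against A. lyrata and -0.42 between the hybrids, and the lyrata hybrid was called against mid-parent for FMA (0.90) and TRY (1.06). With the mid-parent on the log2 scale these were 1.02 and 1.12. At a threshold of 0.01, TRY in A. halleri against A. lyrata (1.50) was lost. The cause of these changes was not tested.

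Replicate numbers do not pair the samples: over the 10 pairs of groups the correlation of replicate differences ran from -0.13 to 0.26, and 1 was over 0.1. With the replicate block, FMA in the halleri hybrid against A. thaliana was 1.20 and not called. Leaving out 1 array at a time gave 1.13 to 1.26 for FMA in the halleri hybrid against A. thaliana, 1.59 to 1.72 for the lyrata hybrid against A. thaliana, and 0.84 to 0.93 for the lyrata hybrid against mid-parent. It gave 1.32 to 1.69 for TRY in A. halleri against A. lyrata, -0.0064 to 0.49 in the lyrata hybrid against A. thaliana, 0.67 to 1.07 against mid-parent and -0.22 to 0.37 between the hybrids. Without A. thaliana replicate 1 this hybrid was called against mid-parent for FMA (adjusted p = 0.0333) and TRY (0.0419). For other genes, RCA in A. lyrata against A. thaliana was -0.46 with spike-in scaling, -0.59 with hybridization controls and -0.29 with quantile normalization. PIR121 was -0.62 and -0.75 with both control scales, and SPK1 -0.66 and -0.78 in A. lyrata and -0.14 and -0.22 in A. halleri.

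The share of probe sets called, set beside FMA and TRY, moved too. Against A. thaliana the 7161 calls in A. lyrata became 3924 at a threshold of 0.01, and the 6617 in A. halleri became 3326 at that threshold and 3670 without A. halleri replicate 2. The 1925 of the lyrata hybrid ran from 272 to 4419 and the 999 of the halleri hybrid from 120 to 2432. The 2583 of A. halleri against A. lyrata ran from 951 to 3855, the 3425 of the lyrata hybrid against A. lyrata from 1021 to 5581, and the 2508 of the halleri hybrid against A. halleri from 597 to 6293. Between the hybrids 441 became 76 to 1484. Against mid-parent 897 became 36 to 2764 in the A. lyrata cross and 181 became 6 to 1254 in the A. halleri cross, and the 173 for the difference between the hybrids became 16 to 684.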
